A study of Mus musculus with 4 samples.

Results

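The inositol phosphate kinases are the enzymes that add phosphate groups to soluble inositol phosphates, and 10 of their genes were looked up by symbol among the 25050 genes of an RNA sequencing table of HT-22, an immortalised cell line from mouse hippocampus. The set is Ipmk, Itpka, Itpkb, Itpkc, Itpk1, Ippk, Ip6k1, Ip6k2, Ppip5k1 and Ppip5k2, and all 10 were found and passed the filter on low values, a mean of at least 10 normalised reads. Ipmk was chosen by its difference between the groups in this same table, and the others were added as members of its enzyme family. The difference of Ipmk is therefore given as a description without a test, while the other 9 are read against the fit over all genes. The study compared 2 libraries of HT-22 cells overexpressing Nsmce1, labelled Nsmce1-pb, with 2 libraries of wild type HT-22 cells, labelled WT, all from the same range of passages. The comparison asks how the transcriptome responds to more Nsmce1. In the study's own text the controls are also called uninduced and the Nsmce1 construct inducible, but no source used here gives its promoter, the inducer or the length of induction. Separate cultures are not mentioned in the labels, and p-values therefore cover only the spread between these samples, which may be technical.

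In this pathway, phospholipase C releases IP3 from a membrane lipid, and IP3 opens calcium channels of the endoplasmic reticulum. The kinases then build IP3 up to IP4, IP5 and IP6 and, beyond these, to diphosphoinositol phosphates, which carry a pyrophosphate group. Ipmk stands at the branch point, since it phosphorylates IP3 and IP4 to give IP5, and it also phosphorylates the lipid PIP2 to PIP3. In the brain, IP3 3-kinase A, encoded by Itpka, is known as an actin-binding enzyme of dendritic spines in hippocampal neurons.

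The results turn on Ipmk, so the 250 bases before its RefSeq start site are shown beside those of Ip6k1, the most abundant kinase of the set per exon length, with the GC box GGGCGG and an 8-base word, GCATGNTC, in capitals on either strand. The Ipmk stretch is chr10:71347513-71347762 and the Ip6k1 stretch is chr9:108002398-108002647, both on the plus strand of GRCm38.p6.
Ipmk: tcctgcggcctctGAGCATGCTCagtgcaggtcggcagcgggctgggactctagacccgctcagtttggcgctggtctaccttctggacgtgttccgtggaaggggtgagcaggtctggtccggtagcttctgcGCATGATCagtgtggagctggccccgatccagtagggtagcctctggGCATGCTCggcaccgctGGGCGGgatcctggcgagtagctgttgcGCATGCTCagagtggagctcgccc
Ip6k1: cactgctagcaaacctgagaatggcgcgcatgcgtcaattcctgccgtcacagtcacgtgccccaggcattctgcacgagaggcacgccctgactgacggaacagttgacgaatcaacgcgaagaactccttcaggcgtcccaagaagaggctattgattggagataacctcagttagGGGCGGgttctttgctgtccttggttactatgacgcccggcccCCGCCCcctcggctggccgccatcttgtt

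All 10 genes had an entry in the RefSeq promoter table, with 12 start sites in all. The word GCATGNTC was picked after the Ipmk sequence had been read. It occurred at 4 separate places in the Ipmk stretch, the first of which matches on both strands and the last of which starts 24 bases before the start site. Of 32817 stretches of the same length, 2.38% held the word at least once and 2, the Ipmk stretch among them, held it at 4 or more places. Since both the word and the count of 4 come from the Ipmk stretch, these shares are no test of it. The word was in 0 of the other 11 stretches of the set. The word overlaps GCGCATGC, a part of the NRF1 binding motif, which was found in Ipmk and in Ip6k1 and in 2.25% of all stretches. The GC box was found in 9 of the 12 stretches of the set and in 32.7% of all stretches, and a TATA box, TATAAA, was found in 0 of the 12 and in 12.4% of all. These matches describe letters only, and binding was not measured here.

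The libraries held 32516117 and 44602989 whole reads in Nsmce1-pb cells, against 25787452 and 31010351 in WT cells. Nsmce1 itself, a subunit of the SMC5/6 genome maintenance complex with a RING domain, stood at 17851 and 16525 normalised reads in Nsmce1-pb libraries and at 1108 and 1206 in WT libraries, in the direction of the labels. The cells carry a hippocampal neuron label, and of 14 neuron markers 4 passed the filter on low values, Eno2, Syn1, Tubb3 and Syp, while 5, among them Rbfox3, Map2 and Snap25, had no value. The summed level of the 9 with a value was 7278 and 5736 normalised reads in Nsmce1-pb libraries and 5805 and 5788 in WT libraries. Most of each sum was Eno2, at 5778 and 3884 in Nsmce1-pb libraries and 3965 and 4107 in WT libraries. All 9 fibroblast and mesenchymal markers passed the filter, with sums of 490729 and 421842 in Nsmce1-pb and 516650 and 453308 in WT libraries. Of 6 astrocyte, 6 oligodendrocyte, 6 microglia and leukocyte and 6 endothelial markers, 2, 3, 3 and 3 passed the filter. Limma called 0 markers of any list, against 0.193% of all genes tested. At an unadjusted limma p under 0.05, however, both tested astrocyte markers, Tmem119 among the microglia markers and 2 fibroblast markers stood apart. That threshold was met by 7.92% of all genes tested. Aldh1l1 had 14 and 12.4 normalised reads in Nsmce1-pb libraries and 57.8 and 65.3 in WT libraries (log2 fold change -2.14), while Slc1a3 was on the other side, at 0.49. Tmem119 stood at -0.38, Postn at -0.79 and Col3a1 at -0.37. Of the 9 fibroblast markers 8 lay below 0, against 7573 of all 15540 genes tested. The part of these markers in the results below was not tested. In RNA from bulk cells, fewer cells of a type and less RNA per cell cannot be told apart.

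Ipmk (ENSMUSG00000060733, chromosome 10) had 1660 and 2273 normalised reads in the Nsmce1-pb libraries, against 690 and 708 in the WT libraries. Both overexpressing libraries lay above both WT libraries, and they differed from each other by 1.37 times while the WT libraries nearly coincided. The values rest on 1660 and 3114 whole reads in Nsmce1-pb and on 549 and 672 in WT. The means were 1967 ± 434 in Nsmce1-pb and 699 ± 12.3 in WT cells (SD, n = 2 each), and the fitted log2 fold change of Nsmce1-pb over WT was 1.47 (SE 0.158), with a 95% limma interval of 1.09 to 1.86. This is a 2.78-fold difference, with limits of 2.13 and 3.62. Of 15540 genes tested, 30 passed a limma adjusted p of 0.05, or 0.193%, and Ipmk is one of them because it was picked from them. Its place among them depended on the settings, as given at the end. With the median of each chromosome removed from each library the value was 1.33 (SE 0.156).

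**Figure D1:**
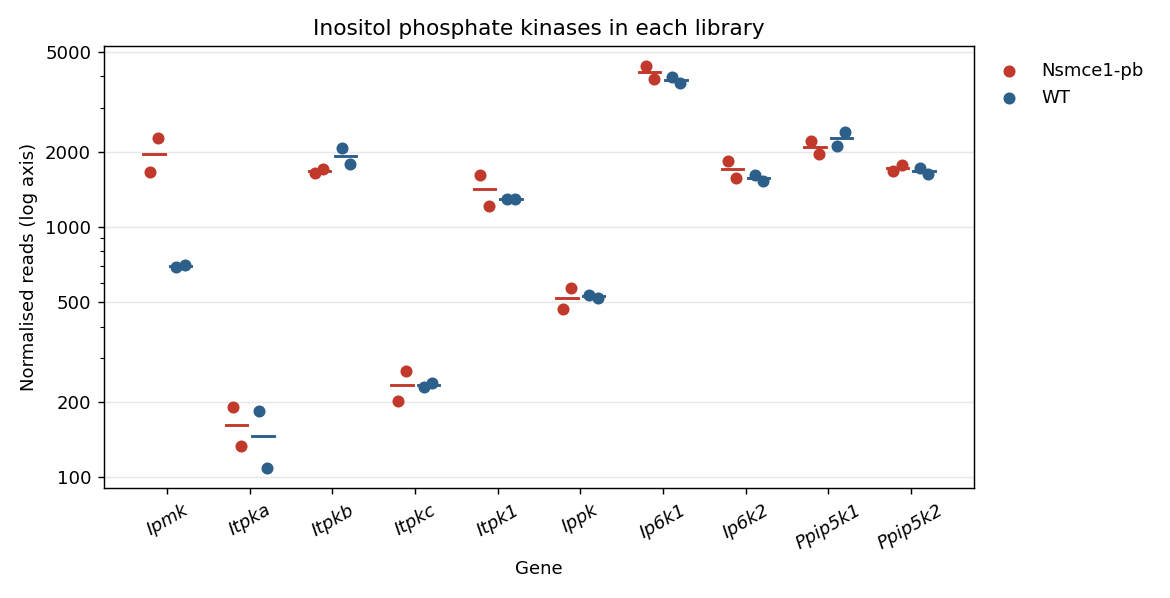
Normalised reads of the 10 inositol phosphate kinase genes in each library, on a log axis, with Nsmce1-pb libraries in red left of WT libraries in blue and a line at each mean (2 libraries a group). Ipmk stands at 1660 and 2273 in Nsmce1-pb libraries and at 690 and 708 in WT libraries, while the points of the groups lie close together for the other 9 genes.

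The other 9 kinases gave no call: 0 of 9 passed the limma adjusted p of 0.05, 0 of 9 had an unadjusted limma p under 0.05, against 7.92% of all genes tested, and limma voom on the whole reads also called 0. The share of all genes called at the adjusted threshold is 0.193%, so that counts of 0 among 9 genes do not set them apart from the rest. Of the 9, 5 lay above and 4 below 0, with a median log2 fold change of 0.04, against 0.005 over all genes tested. Their fitted values ran from -0.20 for Itpkb to 0.17 for Itpka. Groups did not overlap in 1 of the 9, Itpkb, and in 39.1% of all tested genes.

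The IP3 3-kinases turn IP3 into IP4 and so take IP3 away from its receptor. Itpkb (chromosome 1), the most abundant of the IP3 3-kinases here per exon length, had 1648 and 1711 normalised reads in Nsmce1-pb libraries and 2066 and 1792 in WT libraries. Both overexpressing libraries lay below both WT libraries, but the gap to the nearer WT library was small. The log2 fold change was -0.20 (SE 0.101), with 95% limits of -0.44 to 0.05 (limma adjusted p = 0.701). Itpka (chromosome 2), the form found in hippocampal neurons, had 190 and 133 normalised reads in Nsmce1-pb libraries and 184 and 108 in WT libraries. Its replicates spread more widely than its groups, and the interval of its log2 fold change, -0.59 to 0.93 around 0.17, is the widest of the set (limma adjusted p = 0.922). Itpkc (chromosome 7), the form found in many tissues, had 202 and 266 in Nsmce1-pb libraries and 229 and 238 in WT libraries, so that the WT values lie between the overexpressing ones. Its log2 fold change was -0.01 (95% interval -0.46 to 0.44).

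Downstream of these, Itpk1 and Ippk complete the inositol ring. Itpk1 (chromosome 12), a kinase of IP3 and IP4 isomers with an ATP-grasp fold, had 1616 and 1212 normalised reads in Nsmce1-pb libraries and 1290 and 1295 in WT libraries. The WT libraries nearly coincide and lie between the overexpressing ones, which part by a factor of 0.750 (replicate 2 over replicate 1). The log2 fold change was 0.11 (95% interval -0.24 to 0.47, limma adjusted p = 0.879). Ippk (chromosome 13), which adds the last phosphate of IP6, had 469 and 568 in Nsmce1-pb libraries and 536 and 520 in WT libraries. Its groups overlap, and the log2 fold change was -0.03 (95% interval -0.36 to 0.30).

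Among the enzymes that make diphosphoinositol phosphates, 0 of 4 passed the limma test, against 0.193% of all genes tested. Ip6k1 (chromosome 9), which adds a phosphate to IP6 to form a pyrophosphate group, had 4401 and 3910 normalised reads in Nsmce1-pb libraries and 3980 and 3749 in WT libraries. Its close relative Ip6k2, on the same chromosome, had 1831 and 1575 in Nsmce1-pb libraries and 1621 and 1523 in WT libraries. For both genes replicate 1 of Nsmce1-pb was the highest library and the groups overlapped. The log2 fold changes were 0.10 for Ip6k1 (95% interval -0.12 to 0.32), and 0.11 for Ip6k2 (95% interval -0.15 to 0.37). Ppip5k1 (chromosome 2), a kinase that acts on IP6 and its diphosphate at another ring position, had 2217 and 1961 in Nsmce1-pb libraries and 2118 and 2409 in WT libraries. Ppip5k2 (chromosome 1), its paralogue, had 1682 and 1772 in Nsmce1-pb libraries and 1725 and 1624 in WT libraries. Groups overlapped in both. Their log2 fold changes were -0.11 for Ppip5k1 (95% interval -0.38 to 0.15), and 0.04 for Ppip5k2 (95% interval -0.17 to 0.26). Ip6k3, the third IP6 kinase and no member of the set, was near the lower limit of counting, with 10 and 9.49 normalised reads in Nsmce1-pb libraries and 3.77 and 6.32 in WT libraries, and was not tested.

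**Figure D2:**
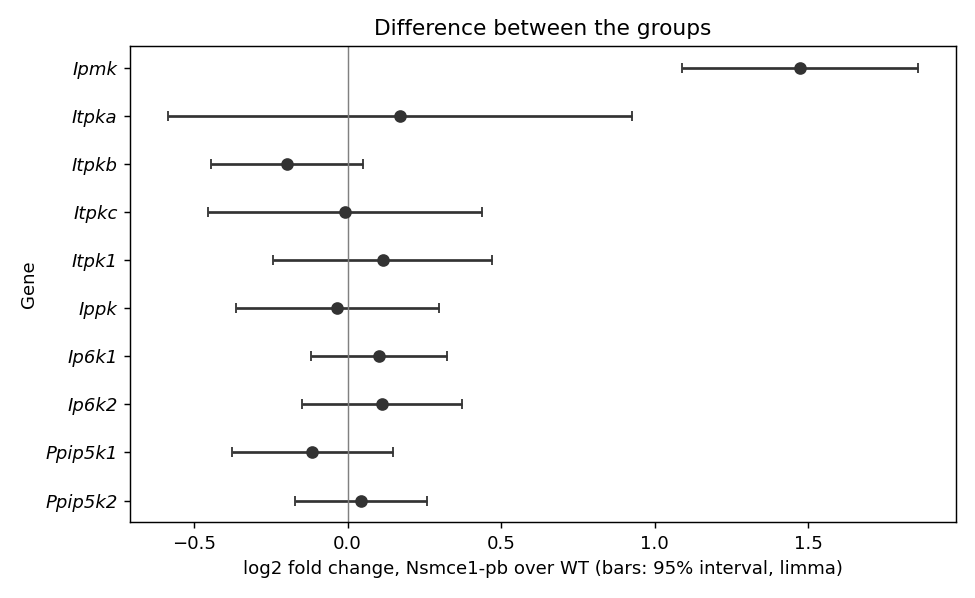
Log2 fold change of Nsmce1-pb over WT for each of the 10 kinase genes, with 95% intervals from limma (2 libraries a group). The interval of Ipmk runs from 1.09 to 1.86, and those of the other 9 genes include 0, with Itpkb lowest at -0.20 and Itpka widest.

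None of these intervals shows that a gene was unchanged. The upper limits among the 9 reached 0.93 on the log2 scale, for Itpka, and the lower limits -0.59, so that differences of those sizes lie within the interval of this gene. The narrowest interval, that of Ppip5k2, had fold limits of 0.888 and 1.20. An exact permutation test of 1 gene, two-sided, cannot go below 0.333 in this design, and the calls rest on the variance that limma shares among genes. In GENCODE M21, exons of Itpkc, Ippk, Ppip5k1 and Ppip5k2 overlap exons of a tested gene on the opposite strand, which are BC024978, Cenpp, Map1a and Gin1. Whether counting used strand is not given, so reads of these pairs may be shared. Their partners had log2 fold changes of -0.02, -0.001, 0.01 and 0.11. Ipmk overlaps no other gene in that annotation.

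Levels of different genes were ranked per length, as normalised reads per kb of annotated exon. Per kb, Ipmk averaged 277 ± 61.1 in Nsmce1-pb cells and 98.6 ± 1.73 in WT cells (SD, n = 2 each), on 7093 bases of exon. Its rank among the 10 genes was 4 in Nsmce1-pb cells and 8 in WT cells. In Nsmce1-pb cells its libraries lay below both Ip6k2 libraries, at 450 and 387 per kb, and above both Ppip5k1 libraries, at 178 and 157 per kb. In WT cells it lay below Ippk, at 111 and 108 per kb, and overlapped with Itpka, at 101 and 59.7 per kb. Ranks follow from the annotated length, and a gene whose long exons are used only in part would stand too low.

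**Figure D3:**
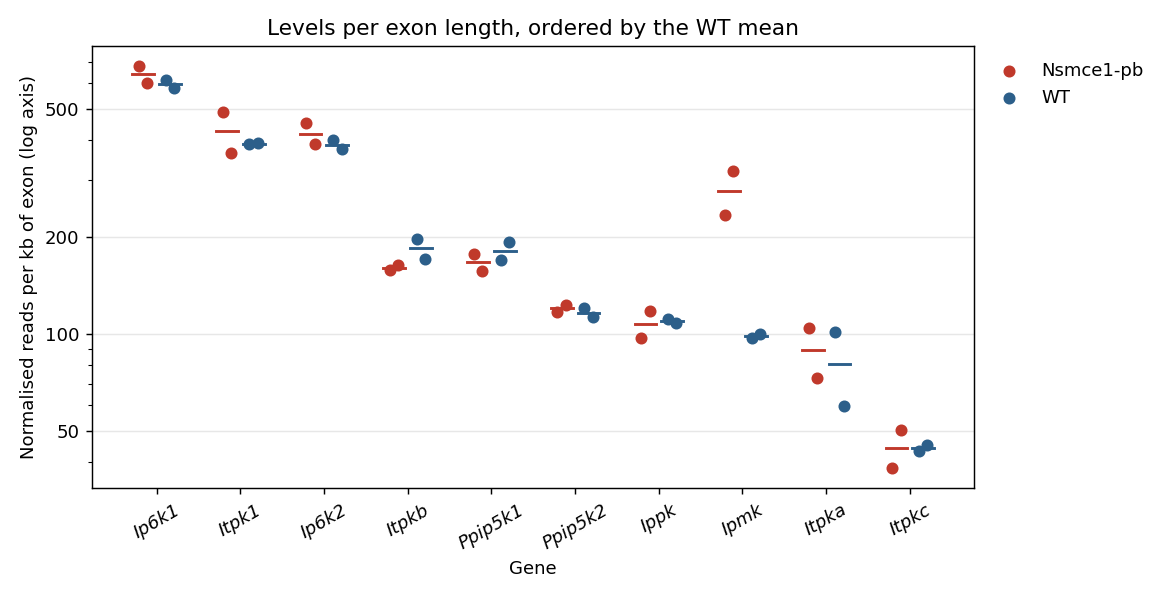
Normalised reads per kb of annotated exon for the 10 kinase genes in each library, on a log axis and ordered by the WT mean, with Nsmce1-pb libraries in red left of WT libraries in blue and a line at each mean. Ipmk, number 8 in the WT order, averages 277 per kb in Nsmce1-pb cells and 98.6 in WT cells.

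Ip6k1 was the highest, at 641 ± 53.5 per kb in Nsmce1-pb cells and 596 ± 25.2 in WT cells. Itpk1 and Ip6k2 followed, at 426 ± 86.1 and 419 ± 44.5 per kb in Nsmce1-pb cells and at 389 ± 1.10 and 386 ± 17.0 in WT cells, and these neighbours did not differ beyond their spread in either group. Itpkb and Ppip5k1 were also not separated in either group, at 161 ± 4.26 and 167 ± 14.5 per kb in Nsmce1-pb cells and at 184 ± 18.5 and 181 ± 16.5 in WT cells. Ppip5k2 and Ippk stood close to each other, at 120 ± 4.44 and 107 ± 14.5 per kb in Nsmce1-pb cells and at 116 ± 4.98 and 109 ± 2.26 in WT cells. Their libraries overlapped in Nsmce1-pb cells and were apart by a narrow gap in WT cells. Itpkc was the lowest, at 44.3 ± 8.62 per kb in Nsmce1-pb cells and 44.2 ± 1.22 in WT cells.

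As a share of the normalised reads of the 10 genes, Ipmk took 10.4% and 14.8% in Nsmce1-pb libraries and 4.78% and 5.07% in WT libraries. Per kb, its share was 9.21% and 13.6% in Nsmce1-pb libraries and 4.34% and 4.68% in WT libraries. The sums that follow are not divided by exon length, so that long genes weigh more. The sum of the other 9 was 14256 and 13110 normalised reads in Nsmce1-pb libraries and 13748 and 13259 in WT libraries. That sum overlapped between the groups. By role, the IP3 3-kinases summed to 2040 and 2110 normalised reads in Nsmce1-pb libraries and to 2479 and 2139 in WT libraries, and the pair Ip6k1 and Ip6k2 to 6232 and 5486 in Nsmce1-pb libraries and to 5601 and 5272 in WT libraries.

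Ipmk lies on chromosome 10, where the median log2 fold change over 752 tested genes was 0.14. Chromosomes 10 and 16, the second of which had a median of 0.17, stood apart from the others, whose medians lay between -0.04 and 0.03. The nearest protein-coding genes on its upstream side are Cisd1, which encodes an iron-sulfur protein of the outer mitochondrial membrane, and Ube2d1, a ubiquitin-conjugating enzyme. Cisd1 had 1189 and 1234 normalised reads in Nsmce1-pb libraries and 933 and 1014 in WT libraries, a log2 fold change of 0.32 (95% interval 0.08 to 0.55, limma adjusted p = 0.494). Ube2d1 had 1542 and 1601 in Nsmce1-pb libraries and 1281 and 1380 in WT libraries, a log2 fold change of 0.24 (95% interval 0.02 to 0.46, limma adjusted p = 0.594). Both genes had higher values in both overexpressing libraries, neither passed the test, and both values were far below the 1.47 of Ipmk. On the other side, the pseudogene Gm9923 and the kinetochore gene Zwint had log2 fold changes of 0.21 and 0.12. The other places next to Ipmk, RP23-60H16.2 and RP24-498F21.2, had means under the minimum of 10 normalised reads. With the chromosome median removed, Cisd1 stood at 0.17, Ube2d1 at 0.10 and Zwint at -0.02.

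Of the 20 tested genes on each side of Ipmk, 32 of 40 lay above 0, against 51.3% of all tested genes. Their median log2 fold change was 0.16, close to the 0.14 over the tested genes of chromosome 10. The highest value among the 40 was 1.03, for RP24-225G11.2 (95% interval -0.27 to 2.32), and the lowest was -2.37, for Lrrc75b, both named after their values were seen. Removing the chromosome median gave Ipmk the 1.33 reported above, against 1.47 without that step.

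**Figure D4:**
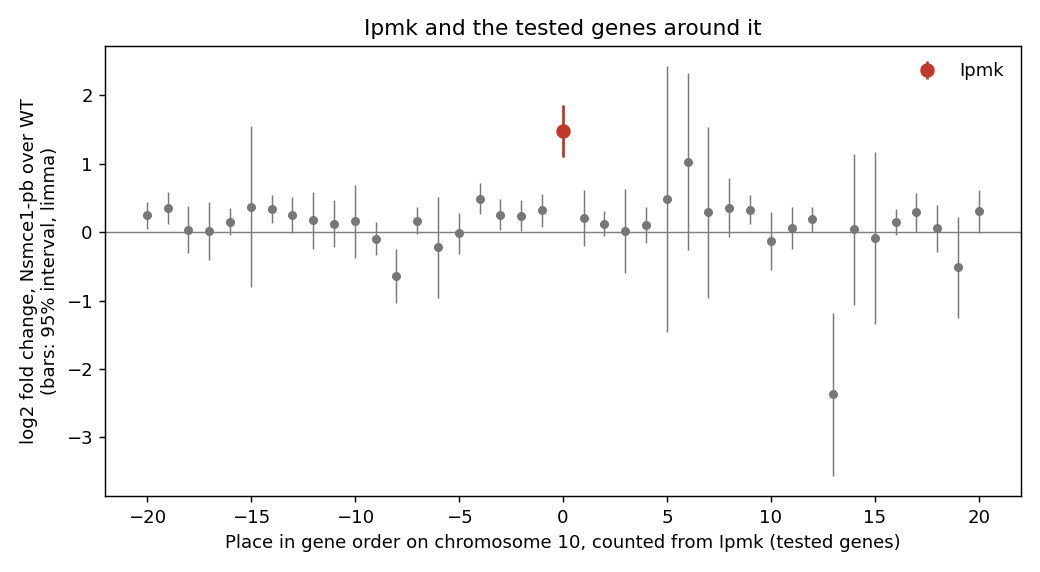
Log2 fold change of Nsmce1-pb over WT for Ipmk, in red, and the 20 tested genes on each side of it, in grey, by place in the gene order of chromosome 10, with 95% intervals from limma. Of the 40 neighbours 32 lie above 0, with a median of 0.16, against 1.47 for Ipmk.

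The genes whose values over the 4 libraries were most like those of Ipmk were found by the distance between log2 values after each gene's own mean was removed. They were Slc36a1, a proton-coupled amino acid transporter, at a distance of 0.185, Fam69c at 0.214, Pcyt1a, an enzyme of phosphatidylcholine synthesis, at 0.321, Plac1 at 0.330 and Tnfaip1, an adaptor of a ubiquitin ligase, at 0.332. Slc36a1 had 1280 and 1481 normalised reads in Nsmce1-pb libraries and 518 and 512 in WT libraries. Like Ipmk it was higher in replicate 2 of Nsmce1-pb than in replicate 1, and level in WT. Fam69c and Plac1 are low genes, with 30 and 51.1 normalised reads in Nsmce1-pb and 13.8 and 13.7 in WT libraries for Fam69c. The likeness follows from the same contrast by which Ipmk was chosen. None of the other 9 kinases was among them, which also follows from that contrast, since their log2 fold changes ran from -0.20 to 0.17.

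The other genes of inositol signalling were taken from 9 lists with 103 genes, of which 86 passed the filter on low values. Of these 86, 0 were higher and 1 was lower at a limma adjusted p of 0.05, or 1.16%, against the 0.193% of all genes tested. The median log2 fold change was 0.05, with 54 above and 32 below 0, and 9, or 10.5%, had an unadjusted limma p under 0.05, against 7.92% of all genes tested. The gene that fell was Plcb4 (chromosome 2), a phospholipase C that makes IP3 downstream of receptors coupled to G proteins. It had 63 and 46.0 normalised reads in Nsmce1-pb libraries and 236 and 219 in WT libraries, and the groups lie far apart at a low level. Its log2 fold change was -2.06 (SE 0.229, 95% interval -2.62 to -1.50), and the limma adjusted p was 0.0496. The call is at the edge of the threshold: it held in 4 of 16 alternative settings, whose limma adjusted p ran from 0.0167 to 0.316, and the value itself stayed between -2.28 and -1.84. It was lost without Nsmce1-pb replicate 2 (limma adjusted p = 0.0586), without WT replicate 1 (0.316) and without WT replicate 2 (0.242).

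Plcb4 stood alone in its list of phospholipase C enzymes and IP3 receptors, which had 10 tested genes, 1 of them lower and 0 higher, and a median of 0.04. Plcb3, the next in p, had a log2 fold change of 0.18, with 7227 and 6410 normalised reads in Nsmce1-pb libraries and 6060 and 5947 in WT libraries (limma adjusted p = 0.673). The IP3 receptor genes, whose products are the calcium channels that IP3 opens, stood at 0.14 for Itpr1, -0.10 for Itpr2 and 0.07 for Itpr3, and none passed the test. These were chosen after their values were seen, as the direct targets of IP3.

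Phosphatases that remove phosphates from inositols had 18 tested members, with 0 called in either direction and a median log2 fold change of 0.03. Inpp4a, which removes a phosphate from inositol lipids and inositol phosphates, had 684 and 998 normalised reads in Nsmce1-pb libraries and 1366 and 1156 in WT libraries (log2 fold change -0.60, SE 0.193, limma adjusted p = 0.514). Inpp5e, a phosphatase of the primary cilium, had 885 and 885 in Nsmce1-pb libraries and 1070 and 1083 in WT libraries (log2 fold change -0.28, limma adjusted p = 0.528). Groups were apart in both genes, and neither passed the test over all genes. The Nudt hydrolases, which take the pyrophosphate off diphosphoinositol phosphates, had 2 tested members. Nudt3 stood at -0.04 and Nudt4, on chromosome 10, at 0.17, or 0.02 with the chromosome median removed. Genes of inositol synthesis and uptake had 7 tested members, 0 called and a median of 0.05. Slc2a13, a proton-coupled inositol transporter, stood at 0.24 from low counts and Slc5a3, the sodium-coupled one on chromosome 16, at 0.08, or -0.08 with the chromosome median removed.

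Lipid kinases of the pathway made up further lists. The PI 3-kinases and PIP3 phosphatases had 11 tested genes, 0 called and a median of 0.0002, and the catalytic subunits Pik3ca and Pik3cb stood at 0.15 and 0.17 (limma adjusted p = 0.729 and 0.715). The kinases that make PI4P and PIP2 had 10 tested genes, 0 called, 8 above 0 and a median of 0.13. Pip5k1c, a PIP2-making kinase on chromosome 10, had 3035 and 3252 normalised reads in Nsmce1-pb libraries and 1376 and 2394 in WT libraries. Its overexpressing libraries were both higher, but the WT libraries differed widely, and the log2 fold change of 0.79 (SE 0.243) had a limma adjusted p of 0.489. With the chromosome median removed it stood at 0.65. Pi4k2b, a PI 4-kinase, stood at 0.25 (limma adjusted p = 0.609).

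**Figure D5:**
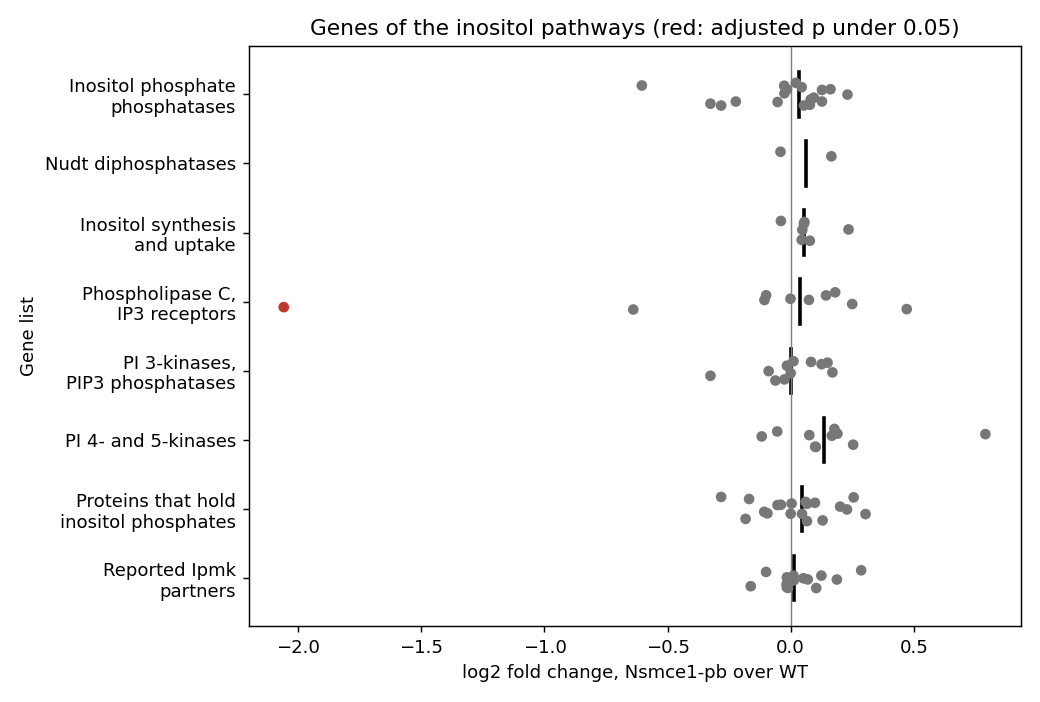
Log2 fold change of Nsmce1-pb over WT for the tested genes of the inositol lists, 1 point a gene and a black line at each list's median, with genes past a limma adjusted p of 0.05 in red. Plcb4, at -2.06, is the 1 gene past the threshold, and the list medians lie between 0.0002 and 0.13.

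Proteins that hold higher inositol phosphates, such as histone deacetylase complexes and mRNA export factors, had 19 tested genes, 0 called and a median of 0.05. Hdac2, a histone deacetylase on chromosome 10, had 4790 and 5007 normalised reads in Nsmce1-pb libraries and 3946 and 4262 in WT libraries (log2 fold change 0.26, limma adjusted p = 0.501). With the chromosome median removed it stood at 0.11. Gps2, a subunit of the Hdac3 corepressor complex, stood at -0.28 (limma adjusted p = 0.627). Reported partners of Ipmk outside inositol phosphate synthesis had 14 tested genes, 0 called and a median of 0.01. Stk11, an AMPK-activating kinase on chromosome 10, had 2904 and 2889 in Nsmce1-pb libraries and 2609 and 2160 in WT libraries, a log2 fold change of 0.29 (limma adjusted p = 0.594) and 0.14 with the chromosome median removed. Ulk1, a kinase that starts autophagy, stood at 0.19 (limma adjusted p = 0.651). With 0.193% of all genes called, counts of 0 in lists of these sizes do not set them apart from the rest. The lists were chosen with earlier results of these libraries known, and their counts say nothing of enzyme activity or of inositol phosphate levels, which were not measured here.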

How the data were processed

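RNA of 4 HT-22 libraries was sequenced after a TruSeq preparation on BGISEQ-500, per the labels' protocols, and HISAT, Cufflinks and mm9 stand in the submitters' processing notes, with no versions. For strand use and annotation, the sources used here give nothing. The table deposited by the authors holds log2 values of normalised reads plus 1, with no read counts beside them. Undoing the log2 gave whole multiples of 1 step per library for 100% of values within 0.001 read, which also gave the whole reads.

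The deposited log2 values were fitted with limma 3.58.1 (R 4.3.3) with group as the only term and a variance trend, for the 15540 of 25050 genes with a mean of at least 10 normalised reads. Two-sided p-values were adjusted over all tested genes (Benjamini-Hochberg) and called at 0.05. On the log2(value + 1) scale used for fold changes, the change of low genes is understated. The fit was tested on simulated data. Chromosomes, gene order and exon lengths came from GENCODE M21 (GRCm38) by gene identifier, and since the notes name another build, positions are given for RefSeq sequences only.

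The members and lists were chosen with earlier results of these data known. Named genes were the members, Nsmce1, the genes past the threshold and the 2 with the smallest p in each list, the 5 genes most like Ipmk and its 3 neighbours on each side. The alternatives were pseudocounts of 0.1 and 5, no filter and a minimum of 50, other scalings, other variance models, voom on the whole reads, the replicate number as a block and each library left out.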

Additional observations from a re-analysis of the deposited data

How the results depend on the processing

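The log2 fold change of Ipmk stayed between 1.25 and 1.70 in 16 alternative settings, against 1.47 as reported. As it was chosen by this contrast, no test of it is given. Its place among the genes called was also at the edge of the threshold. With all 4 libraries kept, it was lost with a pseudocount of 0.1, no filter, quantile normalization, the chromosome median removed, no variance trend and voom. It was also lost without WT replicate 1 (log2 fold change 1.46) and without WT replicate 2 (1.49). It was kept without Nsmce1-pb replicate 1 (1.70) and without Nsmce1-pb replicate 2 (1.25). With 1 library left out of a group, the lone library is assumed to vary like the other group. The other 9 kinases had 0 calls in all 16 settings (smallest limma adjusted p 0.518), and 137 of 144 values kept their sign. Signs turned for Itpkc with voom (0.011, against -0.01) and with libraries left out, where Ippk ran from -0.17 to 0.11, Itpk1 from -0.093 to 0.32, Itpka from -0.21 to 0.55 and Itpkc from -0.21 to 0.19. The others kept their sign but also moved, Itpkb from -0.30 to -0.094, Ip6k1 from 0.018 to 0.19, Ip6k2 from 0.0038 to 0.22, Ppip5k1 from -0.21 to -0.022 and Ppip5k2 from 0.0011 to 0.088. In the inositol lists, the 1 call, Plcb4, became 0 with a pseudocount of 0.1, no filter, a minimum of 50, the common median, quantile normalization, the trimmed mean, the chromosome median removed, no variance trend and voom, and was 0 to 1 with libraries left out. The cause was not tested. The count of calls over all genes, 30, was 16 without a filter, 18 with quantile normalization, 9 without a trend, 72 with robust variances and 2 to 75 with libraries left out (51 without Nsmce1-pb replicate 1, 75 without Nsmce1-pb replicate 2, 2 without WT replicate 1 and 9 without WT replicate 2). With the replicate block it was 60, with Ipmk at 1.47. Deviations of libraries with the same number correlated with r = 0.007 over genes, and the labels give no pairing. Among the 10 kinases Itpka rests on the fewest reads, 103 to 190 a library, and has the widest interval; the cause of its spread was not tested.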
